A study of Mus musculus with 6 samples.

Results

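Mesenchymal cells sorted as Gli1+ or Gli1- from the injured Achilles tendon at 7 days post-injury (dpi) were compared gene by gene. A mesenchymal cell was a kept barcode with at least 1 UMI of Pdgfra, a growth factor receptor of fibroblast-lineage cells, and none of Ptprc (CD45, leukocytes) or Cdh5 (VE-cadherin, endothelium). Kept barcodes held at least 1000 UMIs and 200 genes and at most 5% mitochondrial UMIs. The rule selected 5221 of 10064 kept barcodes of the Gli1+ library (51.9%, 95% binomial interval 50.9% to 52.9%) and 6550 of 10899 of the Gli1- library (60.1%, 59.2% to 61.0%), in all 11771 of the 63329 kept barcodes of the 6 libraries.

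All cells came from Gli1-CreERT2; Ai9 mice given tamoxifen before injury, in which Cre from the Gli1 locus switches on a fluorescent reporter that is inherited by daughter cells. The Gli1+ sort therefore holds cells that expressed Gli1 around the time of tamoxifen and their progeny, and the Gli1- sort holds the other cells of the same tissue, unrecombined Gli1-expressing cells included. Injury was repeated clamping of the Achilles tendon followed by tenotomy, in 8 mice for 7 dpi, and each sort gave 1 library with the Chromium 3' kit. With 1 library a side there was no replicate check and no test. The intervals below cover counting error only, and they do not say how far 2 such libraries of the same sort would differ.

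Gli1 is a transcription factor and target gene of hedgehog signaling, and in many organs it marks perivascular and sheath-associated mesenchymal progenitors. Fibroblasts of the tendon sheath and of loose connective tissue carry Pi16, Dpp4, Ly6a and Cd34, whereas tenocytes carry Scx, Tnmd and Fmod. After tenotomy in mice, cartilage and then bone form at the injured site, a process called heterotopic ossification.

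The 11 genes of the mesenchyme list other than Pdgfra, which the gate required, were all detected in the gated cells of both libraries. So was every gene of the mural, Schwann and skeletal muscle lists, so detection alone does not tell cell types apart. Of these 11 genes 9 lay below 0 on the log2 ratio of Gli1+ over Gli1- cells, with a median of -0.22, and among 19 fibrillar and associated collagens 16 did (median -0.18). Col1a1 was at 15632 and 18449 UMIs per 1000000 UMIs (CPM) in Gli1+ and Gli1- mesenchyme, Col3a1 at 13463 and 17763 CPM, and the limb mesenchyme factor Prrx1 at 370 and 373 CPM. Summed UMIs were 63632851 in Gli1+ and 85443803 in Gli1- mesenchyme, with medians of 11028 and 12252 UMIs per cell. The pair shared 53 barcode sequences. Although the labels state an equal sex distribution, UMIs of Y-linked genes without any of Xist were found in 78.1% and 78.4% of the mesenchymal cells, and 0 and 1 cell had the reverse, so that both sorts were male by these genes. Mesenchyme of the 21 dpi libraries was female by the same measure, with Xist alone in 94.3% and 95.1% of the cells.

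The Gli1+ library carried epidermal RNA. Krt14, a keratin of basal epidermis, was at 1697 CPM in Gli1+ mesenchyme and 34.3 CPM in Gli1- mesenchyme, which was 10.3% and 0.208% of its level in epidermal barcodes. Krt1 and Krt10, keratins of the differentiated layers, were at 896 and 703 CPM against 5.37 and 18.2 CPM. Of the Gli1+ mesenchymal cells, 99.7% held a Krt5 or Krt14 UMI, against 16.3% of Gli1-. Epidermal barcodes, with at least 20 Krt5 and Krt14 UMIs and none of the gate genes, made up 14.7% of the Gli1+ and 0.22% of the Gli1- kept barcodes. Keratins and every gene at 5 times its mean mesenchymal level or more in those barcodes were set aside. This took out 191 genes at a mean of 5 CPM or more, 166 of them 2-fold or more higher in Gli1+ and 0 lower, holding 1.43% of Gli1+ and 0.146% of Gli1- mesenchymal UMIs.

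The mesenchyme of the 2 sorts was alike for nearly all genes. Of 10390 genes compared (mean of at least 5 CPM), 39 (0.375%) were at least 2-fold higher in Gli1+ cells, a log2 ratio of 1 or more, and 66 (0.635%) at least 2-fold lower. The median log2 ratio over all of them was 0.01. Most genes of the adventitial fibroblast program and of complement lay below 0, with medians of -0.52 and -0.67, but 0 of 20 and 1 of 11 were called lower, and 1 complement gene was called higher. Of cartilage and bone genes 9 of 16 were called lower (median -1.06, or 0.00 over those at 20 CPM or more). Cell cycle genes lay mostly above 0 (median 0.49) with 0 of 33 called, and hedgehog and repair matrix genes lay close to equality.

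**Figure D1:**
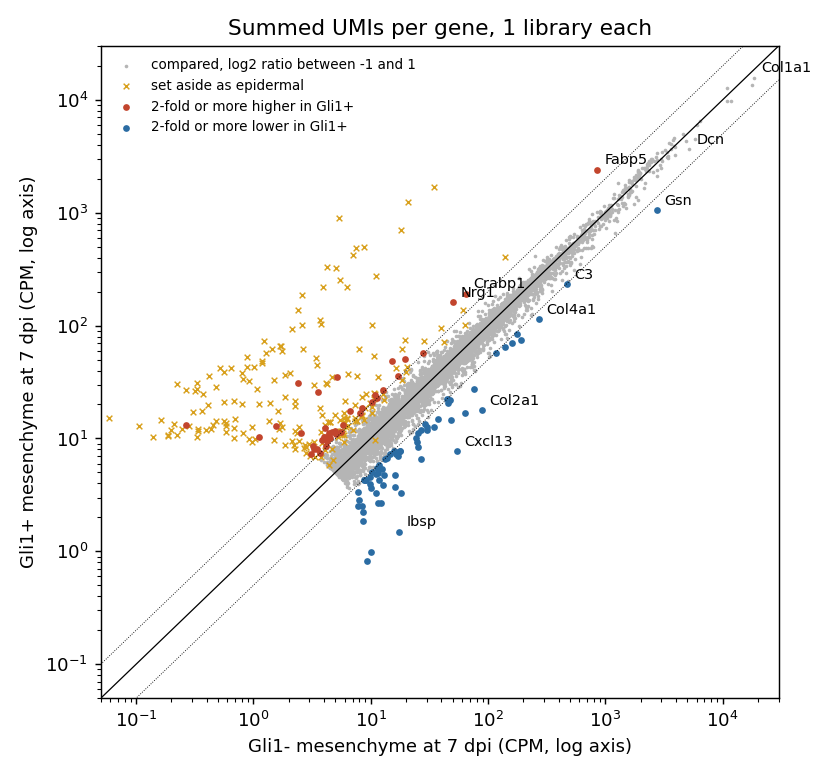
Level of each gene in Gli1- (x) and Gli1+ (y) mesenchyme at 7 dpi, in CPM on log axes, with 1 library a side. The solid line marks equal levels and the dotted lines a 2-fold difference. The cloud follows the equal line, with 39 genes past 2-fold above it, 66 below it, and the set-aside epidermal genes as crosses in the upper left.

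Many of the called genes were much higher in another cell type of the same libraries. Barcodes of 5 kinds (epidermal, endothelial, mural, Schwann and muscle) were gated by their own markers, and 19 of the 39 higher and 27 of the 66 lower genes were at 5 times their mean mesenchymal level or more in 1 of these gates, against 619 of all 10390 genes (5.96%). Among the higher genes the gate was epidermal for 10 and muscle for 5, a gate of 11 Gli1+ and 2 Gli1- barcodes. Among the lower genes it was endothelial for 13 and mural for 10. The part of RNA from such cells in these differences was not tested. Without them, 20 higher and 39 lower genes remained.

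The 15 leading genes above 2-fold in Gli1+ mesenchyme, ranked by the interval bound nearest to 0, were led by genes of skin and muscle. Ly6g6c was at 13.3 against 0.269 CPM and Cst6, an epidermal protease inhibitor, at 31.0 against 2.42 CPM. Their levels in the strict epidermal gate, in which keratins took at least 3% of UMIs, were 76.9 and 117 CPM, and Cst6 was at 198 CPM in the few muscle barcodes. Acta1 and Mylpf, proteins of the skeletal muscle contractile apparatus, were at 10.4 and 11.3 CPM against 1.11 and 2.55 CPM, and at 23994 and 22016 CPM in muscle barcodes. Fabp5, a fatty acid binding protein, was at 2400 against 855 CPM (log2 ratio 1.49). Its level in the epidermal gate was 11982 CPM, and it was also higher in the Gli1+ than in the Gli1- library's endothelial barcodes, at 2837 against 1067 CPM. Igfbp2 and Irx3 likewise passed 5-fold in the epidermal gate, and Cfd (adipsin, a product of fat cells) had 91.3% of its Gli1+ UMIs in 1% of the cells. Cfd passed 5-fold in the endothelial gate (83.5 CPM), and in kept barcodes with neither Pdgfra nor epidermal RNA past the gate it ran the other way, at 6.14 CPM in the Gli1+ library and 51.5 CPM in that of Gli1-.

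Others of the 15 were not 5-fold higher in any gate. Crabp1, a retinoic acid binding protein of papillary dermal and other fibroblasts, was at 191 CPM in Gli1+ and 64.7 CPM in Gli1- mesenchyme (log2 ratio 1.57, 95% interval 1.52 to 1.61). In cells thinned to 2000 UMIs, 17.5% of Gli1+ and 5.8% of Gli1- mesenchymal cells held a Crabp1 UMI, against 9.33% and 2.36% of endothelial barcodes. Crabp1 was higher in Gli1+ cells within all 5 marker-gated states, from a log2 ratio of 1.03 in cycling cells to 2.46 in Ly6a cells. Its epidermal gate level was 31.2 CPM, below that of both mesenchymes.

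Prss35, a secreted serine protease, was at 50.6 against 19.6 CPM (log2 ratio 1.37), Tmem132c, a membrane protein, at 12.5 against 4.06 CPM (1.62), and Mmp9, a gelatinase, at 8.66 against 3.21 CPM (1.43). Robo2, a receptor for Slit guidance cues, was at 48.5 against 15.1 CPM (1.68), and Nrg1, a ligand of ErbB receptors, at 161 against 50.5 CPM (1.67). Col7a1, the anchoring fibril collagen of the skin basement membrane, was at 35.1 against 5.17 CPM (2.76). For Nrg1, Col7a1 and Robo2 the strict epidermal gate was above both mesenchymes, at 282, 56.4 and 49.5 CPM. In the wider epidermal gate, by which genes were set aside, they were at 490, 61.9 and 66.6 CPM. By the same rule Nrg1 was set aside as epidermal at 21 dpi. Robo2 was seen in 6.53% of Gli1+ and 2.61% of Gli1- thinned cells, less than in endothelial barcodes (8% and 4.19%). Mmp9 was seen in 1.22% and 0.324% of thinned cells. Endothelial barcodes had 0% of 150 in the Gli1+ library, which allows a share of up to 2%. In the Gli1- library they had 0.393%, which is the floor of 3 cells there. Neither mesenchymal share could be set apart from this background. The top 1% of the cells held 56.8% and 69.0% of the Mmp9 UMIs. Among the marker-gated states Mmp9 was below 0 in cells with none of the state markers (-0.65) and above 0 in the others. Endothelial barcodes differed between the libraries in the same direction for several of these genes, with Prss35 at 23.2 and 9.14 CPM, Tmem132c at 10.7 and 2.51 CPM, Nrg1 at 110 and 24.5 CPM, Col7a1 at 28.5 and 3.22 CPM, Robo2 at 46.4 and 19.9 CPM and Crabp1 at 75.8 and 37.1 CPM in the Gli1+ and Gli1- library. The part of RNA from outside the cell was not tested. Grem1, a secreted BMP antagonist outside the 15, was at 10.2 against 4.04 CPM (1.34), with 52.0% of its Gli1+ UMIs in 1% of the cells.

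The 15 leading genes lower in Gli1+ mesenchyme were mostly genes of vessels, cartilage or bone, and stroma. Flt1, Esam, Adgrf5 and Cyyr1, genes of endothelium, had log2 ratios of -2.11, -2.21, -2.19 and -1.95. Rgs5, a pericyte gene, was at 16.8 against 64.2 CPM. In the gates of those cells Flt1 reached 661 CPM and Rgs5 4116 CPM. Endothelial barcodes were 1.78% of the Gli1+ and 9.46% of the Gli1- kept barcodes. Over the 10-gene endothelium list the summed level was 25.5 CPM in Gli1+ and 75.2 CPM in Gli1- mesenchyme, with 3 of 5 compared genes called lower, and over the 9-gene mural list it was 83.0 and 177 CPM, with 2 of 7 lower. Over all genes 0.635% were called lower.

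Another 5 of the leading 15, genes of stroma, were not 5-fold higher in any gate. Cxcl13, a chemokine for B cells, was at 7.73 CPM in Gli1+ and 54.6 CPM in Gli1- mesenchyme (log2 ratio -2.82, -2.96 to -2.69), and 70.4% of its Gli1- UMIs lay in 1% of the cells. Inmt, a methyltransferase, was at 6.55 against 27.1 CPM (-2.05), Chrm3, a muscarinic receptor, at 3.27 against 18.0 CPM (-2.46), Saa1, an acute phase protein, at 2.66 against 11.5 CPM (-2.11) and Htra4, a secreted protease, at 4.76 against 16.2 CPM (-1.77). These 5 genes were at most 3.42 times their mean mesenchymal level in any gate, the highest being Htra4 at 35.8 CPM in mural barcodes. Chrm3 was at 18.4 CPM in Gli1- endothelial barcodes, where Cxcl13, Inmt and Saa1 were at 6.81, 6.63 and 3.58 CPM. Chrm3 was seen in 0.95% of Gli1+ and 4.75% of Gli1- thinned cells, against 1.33% and 3.53% of endothelial barcodes. AW112010 and Clic5 were over 5 times their mean mesenchymal level in endothelial barcodes, Clic5 at 76.1 CPM, and Ibsp and Col2a1 are described below with the cartilage genes.

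**Figure D2:**
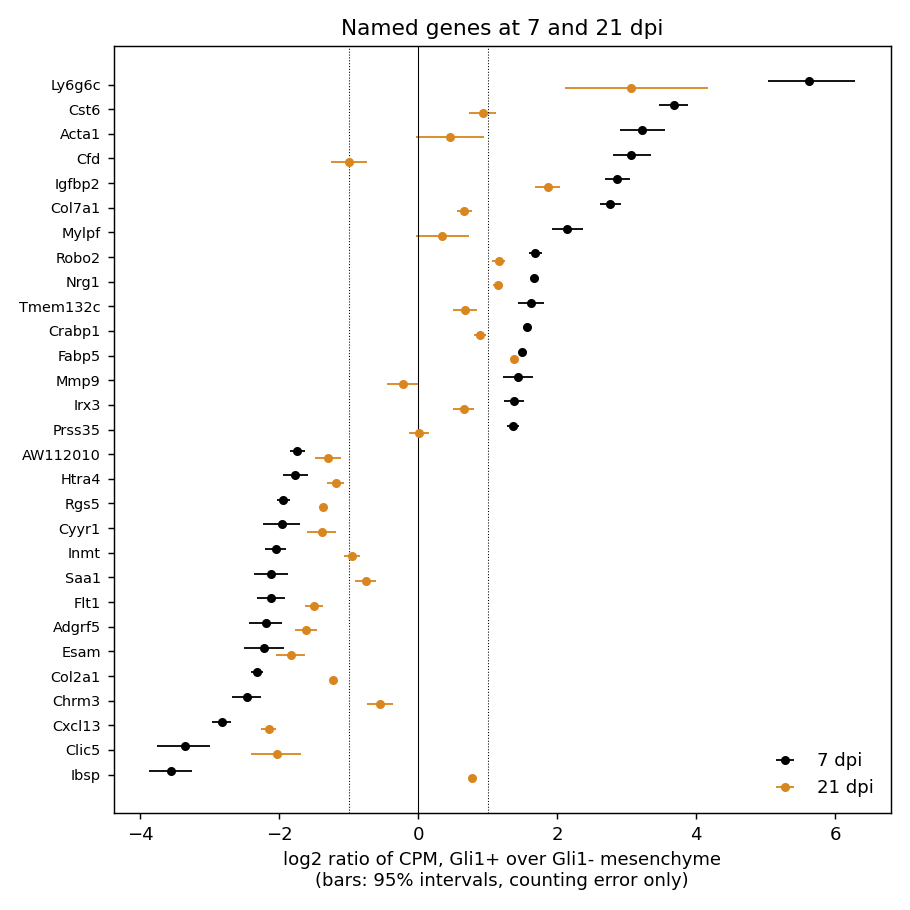
Log2 ratio of CPM in Gli1+ over Gli1- mesenchyme for 29 named genes (y) at 7 dpi (black) and 21 dpi (orange), with 95% intervals for counting error. At 7 dpi all 29 lie past 2-fold by selection, while at 21 dpi Ibsp, Cfd and Mmp9 lie on the other side of 0, with the interval of Mmp9 (-0.22) reaching 0. Ly6g6c, Cst6, Acta1, Cfd, Igfbp2, Mylpf, Nrg1, Fabp5 and Clic5 were not among the genes compared at 21 dpi. Each was below the 5 CPM filter or set aside as epidermal there, and their orange points are shown for completeness only.

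Genes of adventitial and stem-like fibroblasts lay below equality in Gli1+ mesenchyme, each by less than 2-fold. All 20 compared genes of the list had a log2 ratio below 0, with a median of -0.52 and none called. Ly6a (Sca-1) was at 842 CPM in Gli1+ and 1259 CPM in Gli1- mesenchyme (log2 ratio -0.58), Cd34 at 168 and 242 CPM (-0.52), Pi16 at 207 and 287 CPM (-0.47), and Tppp3, a marker of the tendon sheath, at 82.6 and 118 CPM (-0.51). Col15a1, a basement membrane collagen of adventitial fibroblasts, was at 53.6 and 103 CPM (-0.95). Igfbp6, at 539 and 542 CPM, was the member nearest to equality.

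The share of cells gave the same order. At 2000 UMIs per cell, with 63 Gli1+ and 70 Gli1- cells too shallow to enter, 23.4% of Gli1+ and 27.7% of Gli1- cells held Pi16 or Dpp4 (95% intervals 22.3% to 24.6% and 26.7% to 28.9%), and endothelial barcodes stood at 10.7% and 10.2%. Without thinning the shares were 49.7% and 57.1%. Endothelial barcodes were shallower, with medians of 4604 UMIs in the Gli1+ and 3377 in the Gli1- library before thinning. Tppp3 was found in 15.4% of Gli1+ and 22.2% of Gli1- cells, where endothelial barcodes had 16% and 16.8%, so that the Gli1+ share did not exceed this background (45% and 57% unthinned). Ly6a was in 64.7% and 78.0% of cells (91.4% and 97.1% unthinned), but endothelium also expresses it (68% and 76.3%).

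Complement genes lay in the same direction. Of 11 compared genes 10 were below 0 in Gli1+ mesenchyme, with a median log2 ratio of -0.67. C3, the central component, was at 232 CPM in Gli1+ and 472 CPM in Gli1- mesenchyme (log2 ratio -1.03, -1.05 to -0.998), and was the 1 member called lower. Serping1, the C1 inhibitor, was at 658 and 1218 CPM (-0.89), C4b at 52.7 and 101 CPM (-0.94), C1s1 at 119 and 196 CPM (-0.72) and Cfb, of the alternative pathway, at 136 and 217 CPM (-0.67). Cfd was the exception and the 1 called higher, where 0.375% of all genes were called higher and 0.635% lower. Among the marker-gated states Cfd was below 0 in Ly6a cells (-0.49) and above 0 in the others. Within the 5 marker-gated states Serping1 was lower in each, from -0.63 in Pi16 or Dpp4 cells to -1.19 in Ly6a cells, and C3 from -0.67 to -1.16.

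**Figure D3:**
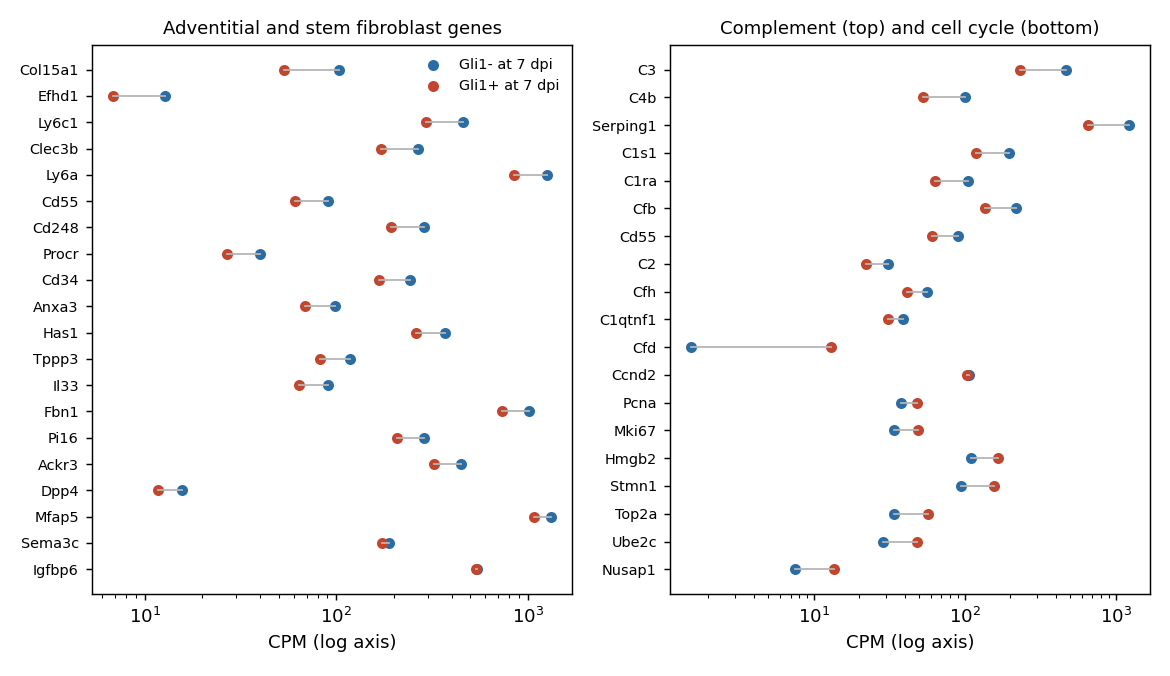
Level in CPM (log axis) of each compared gene of the adventitial and stem fibroblast list (left), and of complement and 8 chosen cell cycle genes (right), in Gli1+ (red) and Gli1- (blue) mesenchyme at 7 dpi, 1 library each. Adventitial and complement genes are lower in Gli1+ except Cfd, with Igfbp6 nearly equal, while 7 of the 8 cell cycle genes are higher.

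Other stromal genes lay in the same direction. Gsn, the actin-severing protein gelsolin, was at 1050 CPM in Gli1+ and 2756 CPM in Gli1- mesenchyme (log2 ratio -1.39, -1.40 to -1.38), and within the 5 states its ratio ran from -0.99 in cycling cells to -1.92 in Ly6a cells. The lipase Lpl was at 70.5 and 161 CPM (-1.19). Dcn (decorin), a small leucine-rich proteoglycan, was at 3648 and 5201 CPM (-0.51), Prg4 (lubricin) at 249 and 483 CPM (-0.96), and 13 of 16 proteoglycan and hyaluronan genes lay below 0 (median -0.35). Col4a1 and Col4a2, the main chains of basement membrane collagen, were at 114 and 74.1 CPM against 274 and 191 CPM, both called lower. Their level in mural barcodes was over 5 times the mesenchymal mean.

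Chemokines and acute phase genes lay mostly below equality. Of 28 compared, 21 lay below 0 (median -0.32), 4 were called lower and 0 higher. Of all 10390 genes 4885 lay below 0 and 0.635% were called lower. Beside Cxcl13 and Saa1, the eosinophil chemokine Ccl11 was at 64.0 against 139 CPM (-1.12) and Ccl19, a ligand of Ccr7, at 3.96 against 9.94 CPM (-1.33). Cxcl12, which retains hematopoietic cells through Cxcr4, was at 407 and 620 CPM (-0.61) and Cxcl14 at 252 and 428 CPM (-0.76). The neutrophil and monocyte attractants were close to equal, with Cxcl1 at 1534 and 1614 CPM (-0.07), Ccl2 at 942 and 920 CPM (0.03) and Cxcl5 at 419 and 396 CPM (0.08). Of 21 interferon-stimulated genes 19 were below 0 with none called (median -0.27), among them Rsad2 at 3.96 and 7.77 CPM (-0.97) and Gbp2 at 22.8 and 40.6 CPM (-0.84).

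**Figure D4:**
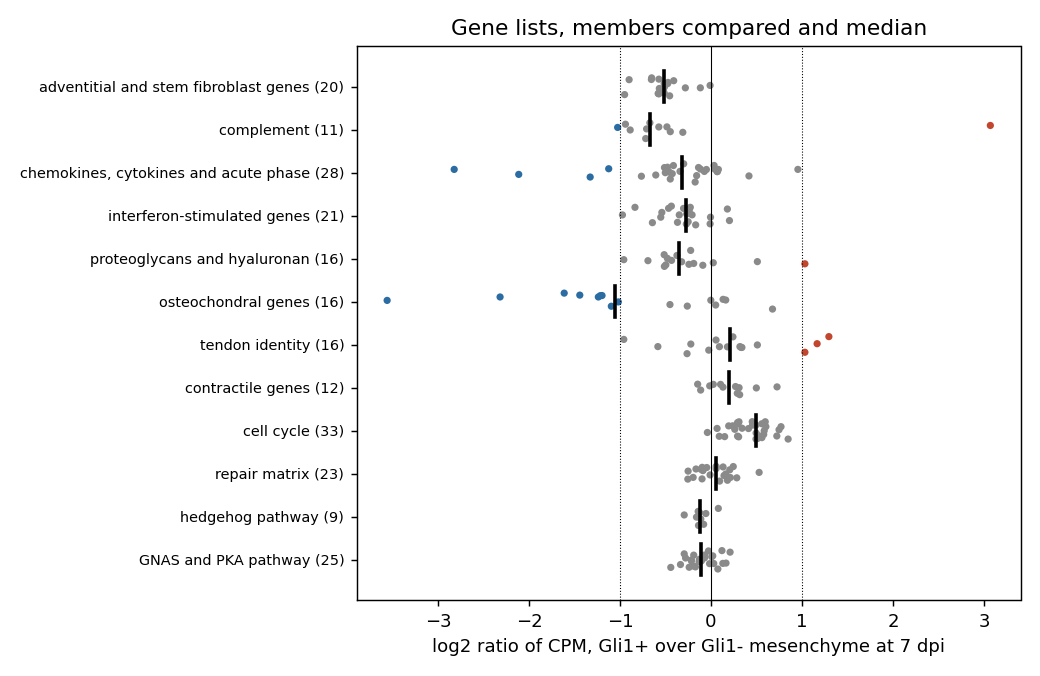
Log2 ratio of CPM in Gli1+ over Gli1- mesenchyme at 7 dpi for each compared member (points) of 12 gene lists (y, number of members in parentheses). Black bars are list medians, and blue and red points lie past 2-fold. Complement (-0.67) and adventitial genes (-0.52) lie left of 0, cell cycle genes (0.49) right of it, and hedgehog genes around -0.12.

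Cell cycle genes lay mostly above equality in Gli1+ mesenchyme, by less than 2-fold. Of 33 genes 32 lay above 0 with a median log2 ratio of 0.49, and none was called. Top2a was at 56.7 CPM in Gli1+ and 33.8 CPM in Gli1- mesenchyme (0.75), Mki67 at 48.6 and 33.8 CPM (0.53), Ube2c, of mitotic exit, at 48.6 and 28.5 CPM (0.77) and the replication clamp Pcna at 47.9 and 37.8 CPM (0.34). At 2000 UMIs per cell Mki67 or Top2a was found in 9.79% of Gli1+ and 6.11% of Gli1- cells (28.8% and 20.7% unthinned), and endothelial barcodes stood at 10% and 6.54%. Neither mesenchymal share was above that of its endothelial barcodes, and the list median was 0.23 without cells at 20 or more Krt5 and Krt14 UMIs. Epidermal barcodes had Top2a at 83.6 and Mki67 at 72.4 CPM. The part of epidermal RNA in the difference was not tested.

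Tenocyte genes ranged from a log2 ratio of -0.96 to 1.30. Of 16 compared, 11 were above 0 (median 0.21), 3 were called higher and 0 lower, where 0.375% of all genes were called higher. Over members at a mean of 20 CPM or more the median was 0.09, and none of the 3 called genes reached that mean. Scx, the tendon transcription factor, was at 50.1 CPM in Gli1+ and 39.5 CPM in Gli1- mesenchyme (log2 ratio 0.34), Tnmd (tenomodulin) at 79.6 and 74.6 CPM (0.09), and Fmod (fibromodulin) at 180 and 127 CPM (0.51). The called genes were Kera (keratocan) at 21.0 and 10.3 CPM (1.03), Cilp2 at 9.51 and 4.24 CPM (1.17) and Chad (chondroadherin) at 8.015 and 3.27 CPM (1.30). Scx or Tnmd was found in 16.7% of Gli1+ and 13.7% of Gli1- thinned cells (44.7% and 38.9% unthinned), and in 14.7% and 8.38% of endothelial barcodes. Repair matrix genes were equal as a group (12 of 23 above 0, median 0.06, none called), as shown by Postn (periostin) at 3196 and 3418 CPM and Tnc (tenascin C) at 1911 and 1686 CPM, with Lrrc15, a gene of activated fibroblasts, the furthest at 155 and 107 CPM (0.53). Contractile genes had a median of 0.20, with Acta2 at 611 and 491 CPM (0.31).

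Cartilage and bone genes were lower in Gli1+ mesenchyme, whereas Sox9 and Runx2 lay close to equality. Of 16 compared, 9 were called lower and 0 higher, with a median of -1.06, where 0.635% of all genes were called lower. Col2a1, the collagen of cartilage, was at 17.7 CPM in Gli1+ and 88.3 CPM in Gli1- mesenchyme (log2 ratio -2.32), Ibsp (bone sialoprotein) at 1.49 and 17.6 CPM (-3.56), and Hapln1, Matn3, Cnmd, Col9a1, Col9a2, Col9a3 and Alpl were also called. Sox9, the regulator of chondrocyte fate, was at 81.7 and 81.8 CPM (0.00), Runx2, that of osteoblasts, at 94.2 and 90.9 CPM (0.05), and Acan (aggrecan) at 96.7 and 116 CPM (-0.26). Sox5, a cofactor of Sox9, was at 181 and 247 CPM (-0.45), and Sox6 was among the genes set aside as epidermal. In kept barcodes without a Pdgfra UMI, epidermal ones left out, the Gli1+ library had Col2a1 at 217 CPM and the Gli1- library at 205 CPM, so that its lower level holds for the gated mesenchyme and not for these barcodes. There Ibsp was at 7.61 and 55.5 CPM. The cartilage transcripts came from few cells. In Gli1- mesenchyme 1% of the cells held 87.4% of the Col2a1 and 93.3% of the Ibsp UMIs, in Gli1+ 46.5% of the Col2a1 UMIs. Col2a1 was seen in 2.73% of Gli1+ and 3.1% of Gli1- thinned cells (12.1% and 14.2% unthinned), whose intervals overlapped (2.31% to 3.22% and 2.69% to 3.55%) and which stood beside 1.33% and 3.14% of endothelial barcodes. With every cell weighted alike, the list median was -0.46, and over genes at 20 CPM or more it was 0.00.

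Gli1 itself did not separate the sorts. It was at 1.92 CPM (122 UMIs) in Gli1+ and 2.48 CPM (212 UMIs) in Gli1- mesenchyme, a log2 ratio of -0.37 (-0.71 to -0.04) and below the 5 CPM filter, and was found in 0.562% and 0.725% of thinned cells (2.11% and 2.87% unthinned). Of endothelial barcodes 0 of 150 in the Gli1+ library, which allows a share of up to 2%, and 0.131% in the Gli1- library held Gli1. The sort marks lineage from the time of tamoxifen, so this level is no check of the labels, and the sort was not checked here against the reporter transcript. Of 9 compared hedgehog genes 8 lay below 0 with a median of -0.12 and none called. The receptor and target Ptch1 was at 24.0 and 22.6 CPM, the transducer Smo at 44.7 and 46.4 CPM, and the co-receptor Gas1 at 367 and 450 CPM (-0.29). The ligands Shh, Ihh and Dhh were at or below 0.316 CPM in both. Genes of the Gnas and protein kinase A pathway were near equal (17 of 25 below 0, median -0.10, none called), with Gnas at 1561 and 1678 CPM.

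Genes of Wnt signaling were split, with 6 of 18 compared above and 12 below 0, a median of -0.05 and no call. A further 4 of that list were set aside as epidermal, among them Wnt4 at 38.0 against 2.05 CPM. Axin2, a feedback target of the pathway, was at 9.87 CPM in Gli1+ and 5.02 CPM in Gli1- mesenchyme (log2 ratio 0.97), the inhibitor and target Apcdd1 at 11.1 and 5.81 CPM (0.93) and the R-spondin receptor Lgr5 at 48.4 and 31.4 CPM (0.62). The secreted Wnt antagonist Sfrp2 was at 482 and 748 CPM (-0.63) and Sfrp1 at 648 and 804 CPM (-0.31). Lef1, a transcription factor of the pathway that lay below the filter, was at 3.58 and 0.351 CPM. Axin2 was at 14.4 CPM in the strict epidermal gate. In the dermal fibroblast list Crabp1, Ptk7 (22.7 and 11.3 CPM, 1.01) and Prdm1 (10.2 and 4.20 CPM, 1.29) were called higher and none of 16 lower (median 0.12), while Dpt, at 388 and 554 CPM (-0.52), was the lowest. Over all genes 0.375% were called higher.

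Growth factor genes gave single calls. Fgf10, a ligand for epithelial receptors, was at 7.75 CPM in Gli1+ and 17.7 CPM in Gli1- mesenchyme (log2 ratio -1.19), the only lower call among 23 IGF and FGF genes, where Igfbp2 was the only higher call. Igf1 was at 854 and 1193 CPM (-0.48) and Igfbp4 at 1300 and 1888 CPM (-0.54). Grem1 was the only call among 30 BMP and TGF beta genes compared. A further 3 of that list were set aside as epidermal, among them Id1 at 61.7 against 18.4 CPM. Over all genes 0.375% were called higher and 0.635% lower. All 12 compared imprinted growth genes and pleiotrophins lay below 0, with a median of -0.23.

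At 21 dpi most genes called lower at 7 dpi had the same direction. There, 10 of 10202 genes (0.098%) were called higher and 57 (0.559%) lower in Gli1+ mesenchyme. Of the 66 genes lower at 7 dpi 60 could be compared at 21 dpi, and 57 were below 0, 22 of them past 2-fold. The 21 dpi libraries again differed in other cells, with endothelial barcodes at 3.08% of the Gli1+ and 15.3% of the Gli1- kept barcodes. In 21 dpi mesenchyme the median was -1.89 over 6 endothelial genes and -1.17 over 9 mural genes. The part of RNA from these cells was not tested. Of the 39 higher genes 23 could be compared, 15 above 0 and 1 past 2-fold. Over all 9848 genes compared at both times 50.1% were above 0. Gsn had a log2 ratio of -0.46, C3 -0.53 and Cxcl13 -2.15 at 21 dpi, Crabp1 0.89, Robo2 1.16 and Prss35 0.01. The adventitial median was -0.11 (14 of 21 below 0), that of complement -0.16 and that of cell cycle genes -0.01, over 8 of the 33 genes. Sex by Xist and Y-linked genes differs between these times and cannot be told apart from time.

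In uninjured tendon more genes lay past 2-fold, at 4.07% higher and 2.66% lower of the 9716 genes compared both there and at 7 dpi. The median log2 ratio of Gli1+ over Gli1- mesenchyme was 3.03 for tendon identity genes (14 of 16 above 0) and 2.13 for osteochondral genes, beside 0.07 for all genes compared. The 2 libraries also differed in other cells, with immune barcodes at 52.0% and 0.132% and endothelial barcodes at 5.88% and 30.1% of those kept, and in mesenchyme the median was 2.54 over 5 immune genes and -3.78 over 8 endothelial genes. The part of RNA from these cells was not tested. Scx was at 23.3 and 2.77 CPM and Fmod at 607 and 56.4 CPM. The hedgehog median was 0.68, with Gli1 at 14.9 and 8.88 CPM. There 1598 and 4657 cells passed the gate, with Xist alone in 63.5% and Y-linked UMIs alone in 23.6% of the Gli1+ cells, against 0 and 72.3% of the Gli1- cells. Within the 377 and 3367 cells with Y-linked UMIs alone, a comparison added after seeing the data, the median was 3.11 for tendon identity, 1.93 for osteochondral and 0.66 for hedgehog genes.

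**Figure D5:**
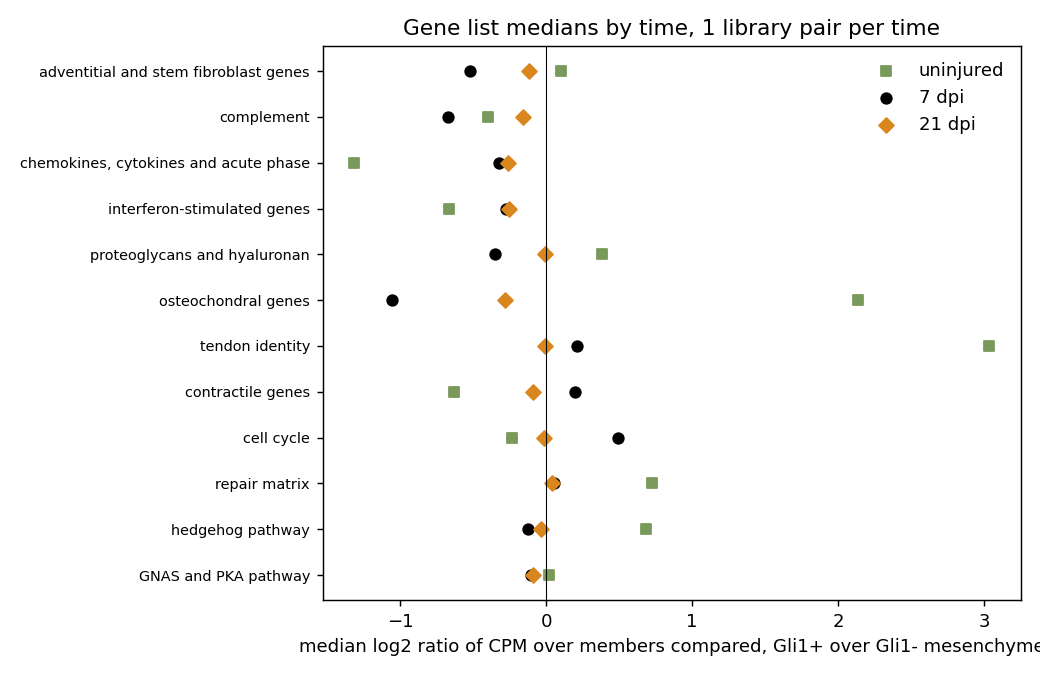
Median log2 ratio of CPM in Gli1+ over Gli1- mesenchyme over the compared members of 12 gene lists (y), where green squares stand for uninjured tendon, black circles for 7 dpi and orange diamonds for 21 dpi, from 1 pair of libraries per time. Tendon identity genes stand at 3.03 before injury, 0.21 at 7 dpi and -0.01 at 21 dpi.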

How the data were processed

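Single-cell RNA was measured in 6 libraries, 1 per sort and time. The authors deposited raw UMI counts of 33696 genes for the barcodes that Cell Ranger took as cells, without normalization. The submitters' processing notes name Cell Ranger 3.1.0, STAR and mm10, whereas the file headers give Cell Ranger 9.0.0, so no coordinates are given. Rows with the same symbol were summed, leaving 33670 symbols.

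UMIs were summed over gated cells and divided by the sum, times 1000000 (CPM). Sums carry exact Poisson, shares exact binomial (Clopper-Pearson) and log2 ratios binomial 95% intervals, for counting error only. Calls needed a log2 ratio of 1, and no count model was fitted. Scaling factors (TMM) were taken from edgeR 4.0.16 (R 4.3.3), and all else was computed in Python 3.11.15, numpy 2.4.6, scipy 1.17.1 and pandas 2.3.3. Genes set aside, sex-linked genes and the gate genes were not compared. The named genes were the 15 highest and 15 lowest by the interval bound nearest to 0, with a log2 ratio of at least 0.58 in the same direction in cells with Y-linked UMIs, plus called list members. Gsn, Lpl and list members that were not called were chosen as examples after their values were seen. 1 of these genes is not reported here. The rule also asked for Xist cells, which 7 dpi lacks. Marker-gated states were assigned in the order Mki67 or Top2a, Pi16 or Dpp4, Scx or Tnmd, Ly6a, rest. For shares, cells were thinned to 2000 UMIs. Doublets were not removed, and an alternative left out cells with UMIs of both sexes and those above the 95th percentile of UMIs. Both 7 dpi sorts were male by sex-linked genes, and only 1 Gli1+ and 5 Gli1- mesenchymal cells had UMIs of both sexes. That part of the alternative could therefore find few doublets. The intervals were tested on simulated data with independent Poisson counts per gene, the model that they assume. Clumping of UMIs in few cells was not simulated, so their behavior for such genes was not tested. The gene lists and tests were chosen with earlier results of these data known.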

Additional observations from a re-analysis of the deposited data

Results flagged for a closer look

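For 2 of the named genes the difference between sorts had opposite signs at the 2 times after injury, with counting intervals clear of 0 at both. Ibsp was lower in Gli1+ mesenchyme at 7 dpi (log2 ratio -3.56) and higher at 21 dpi (0.77, at 504 against 295 CPM). At 7 dpi 1% of the cells held 100% of its Gli1+ and 93.3% of its Gli1- UMIs. Cfd was higher at 7 dpi (3.07) and lower at 21 dpi (-0.99, at 2.81 against 5.59 CPM). Its 21 dpi mean lay below the 5 CPM filter, and at 7 dpi 1% of the cells held 91.3% of its Gli1+ and 70.5% of its Gli1- UMIs. Each time has 1 library a side, so the difference between times was not tested.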

How the results depend on the processing

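The count of genes past 2-fold depended on the filter on low genes and on how cells were weighted. The 39 higher and 66 lower genes became 128 and 185 at a mean of 1 CPM, 8 and 21 at 20 CPM, 60 and 106 with every cell weighted alike, and 177 and 268 at a log2 ratio of 0.58. Without setting epidermal genes aside 205 were higher. With genes of other cell types also set aside, an alternative added after seeing the data, 20 and 39 remained. With TMM scaling, which shifted every log2 ratio by -0.05, 34 and 79 were called. Of the 14 alternatives run, 9 change the values of genes, and under these all 39 higher and 66 lower genes kept their direction and the 15 leading genes on each side a log2 ratio of at least 1 in size. Of 27 list medians, that of the dermal fibroblast genes turned from 0.12 to -0.047 at a mean of 20 CPM. Some medians within 0.07 of 0 also changed sign, namely that of Wnt genes (-0.05) up to 0.05 with every cell weighted alike, that of glycolysis genes (0.04) to -0.007 with TMM, and that of BMP and TGF beta genes (-0.07) to 0.0003 without cells at 20 or more Krt5 and Krt14 UMIs. The Wnt median moved further the other way, to -0.31 at a mean of 20 CPM. That of cell cycle genes ranged from 0.17 with equal shares of marker-gated states to 0.70 without likely doublets, and that of osteochondral genes from -1.17 to 0.00. The Gli1 ratio ranged from -0.52 to -0.11. The mesenchymal shares of 51.9% and 60.1% became 32.0% and 43.5% at 2 Pdgfra UMIs and 22% and 30.9% in thinned cells. Where Pdgfra, Col1a1 or Dcn sufficed in thinned cells they were 98.1% and 92.4%, so the order turned. Barcodes past the wider epidermal gate made up 14.7% of the Gli1+ and 0.22% of the Gli1- kept barcodes. This looser mesenchymal gate therefore cannot be taken to hold mesenchyme alone. The cause of the turn was not tested.

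An analysis of Xist cells and 1 without keratin-bearing cells were not run, since 7 dpi mesenchyme has 0 and 1 cells with Xist and no Y-linked UMIs, and leaving out cells with any Krt5 or Krt14 UMI would leave 15 Gli1+ cells. In place of the latter, cells at 20 or more such UMIs were left out, chosen after seeing the data, with 34 genes higher and 48 lower. No paired analysis was possible because each sort has 1 library at 7 dpi.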
